A study of Mus musculus with 18 samples.

Results

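The 8 genes described here, Otx2, Fgf5, Pou3f1, Foxd3, Grhl2, Etv1, Zic2 and Zic5, are markers and regulators of formative epiblast. They were picked by name from the 55385 genes of a count table and followed through all 18 libraries of a gastruloid time course, and all 8 passed the filter on low counts that left 16041 genes for testing. Gastruloids are balls of mouse embryonic stem cells that break symmetry and lay down germ layers in culture. All libraries were polyA RNA of wild-type (WT) cells of the strain 129/SVEV, and the arms differed in when the cells met CHIR, a blocker of the kinase GSK3 that switches on Wnt/β-catenin signalling. The early arm met CHIR from 24 to 48 h after aggregation and was collected at 48 h (as the pulse ended), 72 h and 96 h. The control arm met it from 48 to 72 h, and was collected at 48 h (not yet treated), 72 h (as the pulse ended) and 96 h. Each of the 6 groups had 3 libraries. RNA came from pools of gastruloids, a tube for each condition, and the labels do not say whether replicates were separate cultures, so the p-values measure the spread between these libraries, which may be technical.

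Formative pluripotency is the passage between the naive state of the inner cell mass, held by factors such as Esrrb and Zfp42, and the primed epiblast that enters gastrulation. In that passage Otx2 joins Oct4 (the product of Pou5f1) at new enhancers, Fgf5 and the POU factor Pou3f1 (Oct6) come on, and Foxd3, Grhl2 and Zic factors act on enhancers of epiblast genes. At gastrulation, Wnt signalling helps to drive posterior epiblast cells into the primitive streak, while Otx2 becomes restricted to the anterior of the embryo.

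Genes were placed with GENCODE release M21 on GRCm38 (mm10), 1-based, at the loci of the deposited FPKM table. Otx2 lies at chr14:48657677-48673819 on the minus strand and has 9 coding transcripts. Fgf5 lies at chr5:98254184-98277030, Pou3f1 at chr4:124656807-124660655, Foxd3 at chr4:99656299-99658622, Grhl2 at chr15:37233036-37363569 and Etv1 at chr12:38779380-38870484, all on the plus strand. Pou3f1 and Foxd3 have 1 exon each. Zic5 (chr14:122456795-122465677, minus strand) and Zic2 (chr14:122475435-122479852, plus strand) are neighbours read away from each other, with 9758 bp between their starts.

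RefSeq promoter windows (build GRCm38.p6, 250 bases before to 50 after a start, in the direction of the gene) were matched for 5 of the 8 genes. Shown are an Otx2 window and the Foxd3 window, for the genes that kept the smallest share of their untreated level in the control arm at 96 h, the Fgf5 window, for a gene whose highest level was in the last early samples, and an Etv1 window, for the gene that varied least. Capitals mark a match to 1 of 4 short motifs searched on both strands.

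Otx2 (chr14:48665060-48665359, minus strand): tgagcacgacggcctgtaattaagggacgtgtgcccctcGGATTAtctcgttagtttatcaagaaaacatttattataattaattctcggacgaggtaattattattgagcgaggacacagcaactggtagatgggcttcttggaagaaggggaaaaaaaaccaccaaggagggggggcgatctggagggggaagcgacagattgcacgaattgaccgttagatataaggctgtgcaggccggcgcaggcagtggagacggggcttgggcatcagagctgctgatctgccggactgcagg

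Foxd3 (chr4:99656049-99656348, plus strand): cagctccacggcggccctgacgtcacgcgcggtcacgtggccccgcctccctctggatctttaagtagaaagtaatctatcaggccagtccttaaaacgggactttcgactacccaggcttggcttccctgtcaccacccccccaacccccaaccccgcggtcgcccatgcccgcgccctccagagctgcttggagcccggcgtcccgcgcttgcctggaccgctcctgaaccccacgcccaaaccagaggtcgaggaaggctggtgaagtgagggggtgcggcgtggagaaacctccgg

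Fgf5 (chr5:98253934-98254233, plus strand): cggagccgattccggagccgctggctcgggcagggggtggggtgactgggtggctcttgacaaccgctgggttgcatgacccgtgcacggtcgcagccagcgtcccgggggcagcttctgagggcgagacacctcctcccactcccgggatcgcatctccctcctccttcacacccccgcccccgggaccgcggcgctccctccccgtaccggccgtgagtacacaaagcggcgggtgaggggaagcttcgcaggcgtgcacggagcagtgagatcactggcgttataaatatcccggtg

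Etv1 (chr12:38779832-38780131, plus strand): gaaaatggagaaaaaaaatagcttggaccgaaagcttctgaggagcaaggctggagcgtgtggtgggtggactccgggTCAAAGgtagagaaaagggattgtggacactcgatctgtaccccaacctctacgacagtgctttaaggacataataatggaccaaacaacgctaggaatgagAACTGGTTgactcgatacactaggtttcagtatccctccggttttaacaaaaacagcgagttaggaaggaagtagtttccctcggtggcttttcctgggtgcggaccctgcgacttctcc

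The motifs were the Otx site TAATCC, the TCF/LEF site TCAAAG, the octamer ATTTGCAT and the Grhl site AACNGGTT. The Otx2 window held 1 Otx site on the opposite strand (read as GGATTA), 211 bases before the start. The Etv1 window held 1 TCF/LEF site 172 bases and 1 Grhl site 70 bases before the start. These letters were not in the windows of Fgf5, Foxd3 and Zic5, in the other 3 Otx2 windows or in the other Etv1 window. Of all 32851 windows, 7.06% held the Otx site, 16.0% the TCF/LEF site, 1.74% the octamer and 2.09% the Grhl site, and a match is a description, not a site of binding. The Fgf5, Foxd3 and Zic5 windows were 68.3%, 65.7% and 62.7% G and C and held 29, 25 and 15 CpG, where the median over all windows was 52.7% and 7 CpG.

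Total counts per library were 14841728 to 24536538. Levels below are CPM, counts scaled to a common library size adjusted by the trimmed mean of M-values (TMM), and changes are log2 fold changes ± SE from edgeR's quasi-likelihood test over all 18 libraries. A gene was called where its p, adjusted by Benjamini-Hochberg over the 16041 genes, was under 0.05. Control replicate 3 stood apart at every age. Per degree of freedom, the chi-square of its counts against those of replicates 1 and 2 ranged between 15.4 and 28.1, against 1.41 to 7.90 in all other replicate pairs. Of the 8 genes, 5 at 48 h, 7 at 72 h and 5 at 96 h were lower in control replicate 3 than in both others, so counts of called members are also given without those 3 libraries. In bulk RNA, fewer cells that make a transcript and less transcript per cell cannot be told apart.

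The arms parted in opposite directions over the course. At 48 h, as the early pulse ended, 6 of the 8 genes were lower in early than in untreated gastruloids and Etv1 was higher, where 20.7% of all tested genes were called lower and 23.0% higher. At 72 h, 6 were higher in the early arm (21.7% of tested genes), and at 96 h all 8 were (29.5% of tested genes). By 96 h the early arm held Fgf5 at 118%, Etv1 at 116%, Zic2 at 95.5%, Zic5 at 70.7%, Otx2 at 60.0%, Grhl2 at 50.7%, Pou3f1 at 19.1% and Foxd3 at 17.6% of the untreated 48 h mean. The control arm held Fgf5 at 2.39%, Etv1 at 64.5%, Zic2 at 25.7%, Zic5 at 21.9%, Otx2 at 1.11%, Grhl2 at 13.3%, Pou3f1 at 1.75% and Foxd3 at 0.0711%.

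**Figure D1:**
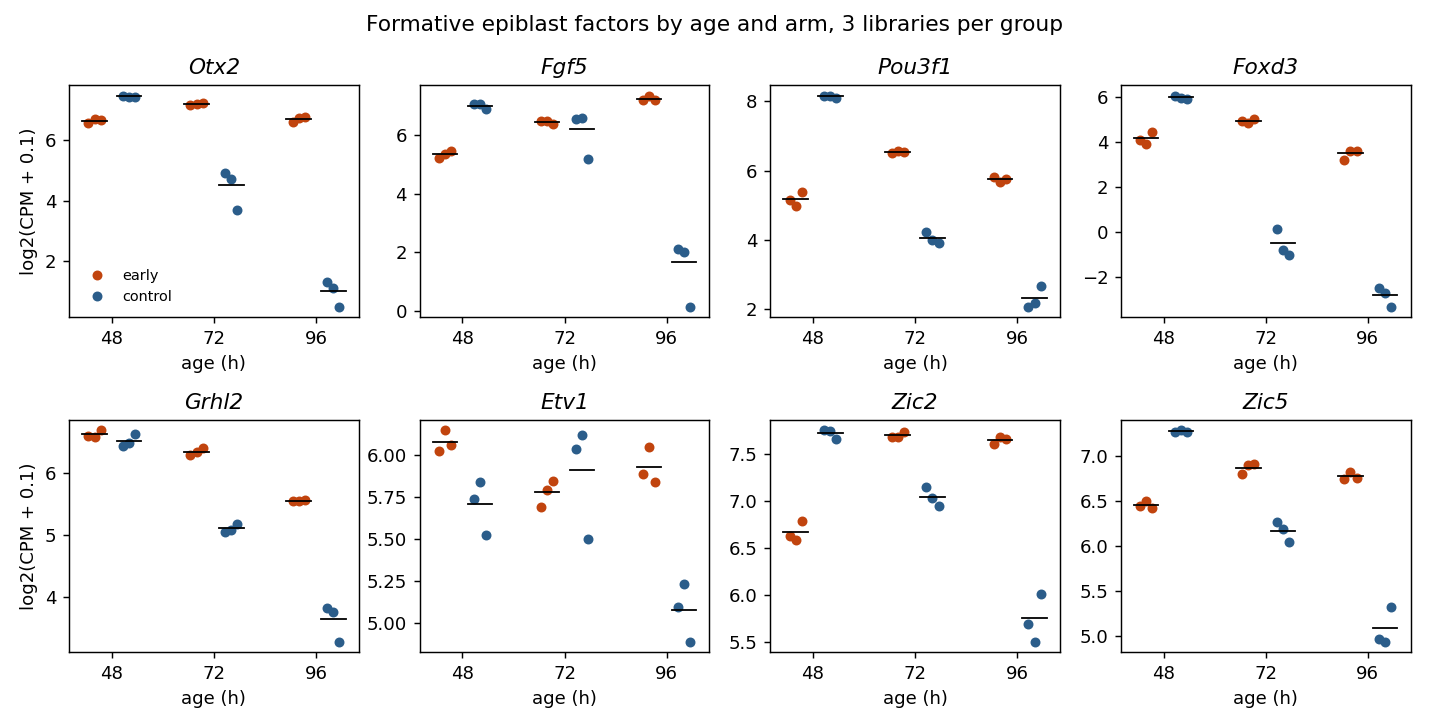
Level of each of the 8 genes as log2(CPM + 0.1) by age in h, with early libraries (orange) left of control libraries (blue), 1 point per library and a bar at the group mean; each panel has its own vertical scale. At 96 h each gene is higher in the early arm, and Etv1 has the narrowest range.

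Otx2, the homeobox factor that opens formative enhancers with Oct4, was measured in the early arm at 94.3, 104 and 102 CPM at 48 h, 142, 148 and 150 CPM at 72 h, and 96.5, 107 and 109 CPM at 96 h. Control libraries had 178, 172 and 172 CPM at 48 h, 30.0, 26.3 and 13.0 CPM at 72 h, and 2.40, 2.06 and 1.31 CPM at 96 h. The arms did not overlap at any age, and control replicate 3 was the lowest library at 72 and 96 h. Otx2 was lower in early than in control gastruloids at 48 h (log2 fold change -0.80 ± 0.15, adjusted p = 2.21e-04). It was 6.28-fold higher in early gastruloids at 72 h (2.65 ± 0.16, adjusted p = 6.27e-10) and 52.2-fold higher at 96 h (5.71 ± 0.23, adjusted p = 6.46e-13), by the fitted values. Early gastruloids thus carried Otx2 RNA on both days after their pulse, whereas in the controls it fell across the pulse (-2.89 ± 0.16, adjusted p = 4.65e-11) and again in the day after it (-3.55 ± 0.26, adjusted p = 1.99e-09).

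Pou3f1, a POU-domain factor of early postimplantation epiblast, was the furthest below its untreated level at early 48 h among the 8. It was at 35.3, 31.7 and 41.6 CPM at 48 h, 91.2, 94.9 and 91.6 CPM at 72 h and 56.2, 50.9 and 53.7 CPM at 96 h in the early arm. In the control arm it was at 286, 283 and 274 CPM at 48 h, 18.6, 15.9 and 15 CPM at 72 h, and 4.10, 4.40 and 6.24 CPM at 96 h. The untreated libraries were the highest by a wide margin, and no group overlapped another. Pou3f1 was 7.76-fold lower in early than in untreated gastruloids at 48 h (-2.96 ± 0.09, adjusted p = 5.23e-14). It was higher in early gastruloids at 72 h (2.48 ± 0.10, adjusted p = 2.56e-12) and at 96 h (3.47 ± 0.12, adjusted p = 7.91e-14). Unlike Otx2, whose early level at 72 h reached 84.5% of the untreated mean, Pou3f1 reached 32.9% there and 19.1% at 96 h.

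Foxd3, a forkhead factor needed to maintain the epiblast, took the same turns as Pou3f1 in the early arm, up and then down. There it was at 16.8, 15.1 and 21.6 CPM at 48 h, 30.3, 29.1 and 32.1 CPM at 72 h, and 9.17, 12.2 and 12.2 CPM at 96 h. Control libraries had 67.1, 62.6 and 61.0 CPM at 48 h and 1.01, 0.469 and 0.390 CPM at 72 h, and 2, 1 and 0 reads were counted at 96 h. No group overlapped another, and the control libraries of 96 h were at the edge of detection. Foxd3 was lower in early than in untreated gastruloids at 48 h (-1.83 ± 0.13, adjusted p = 2.56e-09) and 47.4-fold higher in early gastruloids at 72 h (5.57 ± 0.22, adjusted p = 1.66e-12). Across the control pulse it fell by 6.63 ± 0.21 on the log2 scale (adjusted p = 1.49e-14), to 0.981% of its untreated level, the largest fall of the 8 genes in that step.

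Against the 3 Foxd3 reads of all control libraries of 96 h, a ratio with its exact 95% counting interval stands in for the fitted fold change. The 634 reads of the early libraries of 96 h gave a ratio of 221 (75.2 to 1070), and the 1863 reads of early 72 h gave 596 (204 to 2900). Without control replicate 1 of 96 h these ratios were 386 (69.1 to 15300) and 1040 (187 to 41300). The control libraries of 96 h had 0.0797 times the Foxd3 level of those of 72 h (0.0157 to 0.253), or 0.0455 (0.00112 to 0.271) without that library. The intervals cover counting error only.

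Grhl2, a grainyhead factor that acts at enhancers of epithelial genes in epiblast cells, behaved differently at 48 h. It was at 97.6, 95.9 and 104 CPM in early gastruloids and at 87.5, 90.0 and 100 CPM in untreated ones. The groups overlapped and no change was called (0.10 ± 0.08, adjusted p = 0.343). Without the control libraries numbered 3 the difference was 0.15 ± 0.05 and was called (adjusted p = 0.0143). Grhl2 then dropped in both arms. It was at 78.3, 81.2 and 85.6 CPM at 72 h and at 46.7, 46.8 and 47.3 CPM at 96 h in the early arm, and at 33.2, 33.7 and 36.3 CPM and at 14.0, 13.4 and 9.54 CPM in the control arm at those ages. The early libraries were all above the controls from 72 h on, by 1.25 ± 0.08 at 72 h (adjusted p = 2.07e-09) and by 1.91 ± 0.09 at 96 h (adjusted p = 8.90e-12).

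Zic2, a zinc-finger factor that binds enhancers of epiblast and neural genes, was at 98.8, 96.1 and 110 CPM at 48 h, 204, 204 and 213 CPM at 72 h, and 195, 205 and 202 CPM at 96 h in the early arm. The controls were at 215, 214 and 201 CPM at 48 h, 142, 131 and 123 CPM at 72 h, and 51.7, 45.4 and 64.7 CPM at 96 h. The early libraries of 72 h overlapped the untreated ones, with mean levels of 207 and 210 CPM (-0.02 ± 0.08, adjusted p = 0.841). Zic2 was lower in the early arm at 48 h (-1.05 ± 0.09, adjusted p = 1.27e-08) and higher at 72 h (0.64 ± 0.08, adjusted p = 6.70e-06) and 96 h (1.90 ± 0.09, adjusted p = 4.14e-12).

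Zic5, the neighbouring family member, moved the same way at lower counts. It was at 87.0, 90.5 and 85.7 CPM at 48 h, 111, 119 and 120 CPM at 72 h and 107, 113 and 108 CPM at 96 h in the early arm. In the control arm it was at 154, 156 and 154 CPM at 48 h, 77.0, 73.0 and 65.9 CPM at 72 h, and 31.2, 30.5 and 40.0 CPM at 96 h. The arms did not overlap at any age. The early arm was lower at 48 h (-0.82 ± 0.07, adjusted p = 4.39e-08) and higher at 72 h (0.70 ± 0.07, adjusted p = 5.75e-07) and 96 h (1.70 ± 0.08, adjusted p = 3.30e-12). The early libraries of 72 h stayed below the untreated ones (-0.41 ± 0.07, adjusted p = 1.88e-04), where those of Zic2 overlapped them.

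Per length, in FPKM, the Zic2 level divided by the Zic5 level of the same library varied between the groups. The ratio was 1.56 to 1.87 in libraries from the end of the early pulse, 2.57 to 2.78 a day later and 2.69 to 2.7 in the last early samples. Untreated libraries had 1.95 to 2.10, and the controls had 2.64 to 2.75 as their pulse ended and 2.16 to 2.40 in the last samples. Early libraries had the lower ratio at 48 h and the higher one at 96 h, without overlap, and the arms overlapped at 72 h.

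Fgf5, the secreted growth factor used most often as a marker of formative and primed epiblast, was still rising at the last age of the early arm. It was at 36.7, 40.8 and 43.5 CPM at 48 h, 89.3, 89.7 and 83.8 CPM at 72 h and 146, 163 and 146 CPM at 96 h in the early arm. Control levels were 132, 134 and 119 CPM at 48 h, 92.7, 94.8 and 35.9 CPM at 72 h and 4.27, 3.91 and 0.998 CPM at 96 h. Early libraries of 96 h were above all others, and control replicate 3 was far below its 2 companions at 72 and 96 h. Fgf5 was lower in the early arm at 48 h (-1.67 ± 0.24, adjusted p = 2.00e-05), and no difference was called at 72 h (0.23 ± 0.23, adjusted p = 0.459). Without control replicate 3 of 72 h the 72 h difference was -0.10, also not called. At 96 h Fgf5 was 46.9-fold higher in early gastruloids (5.55 ± 0.33, adjusted p = 1.17e-10). It was the only 1 of the 8 called higher at early 96 h than at early 72 h (0.79 ± 0.23, adjusted p = 0.0126), a call that was missed with DESeq2's Wald test (adjusted p = 0.104).

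Within a library, the Otx2 level divided by the Fgf5 level in FPKM gives the balance of the pair. It was 3.05 to 3.32 at early 48 h, 2.03 to 2.31 at early 72 h and 0.829 to 0.919 at early 96 h. Untreated libraries had 1.68 to 1.84, controls of 72 h had 0.355 to 0.472 and controls of 96 h had 0.60 to 1.75. The early libraries had the higher ratio at 48 and 72 h, without overlap. At 96 h the arms overlapped, and control replicate 3, with both genes under 2 CPM, gave the highest control value.

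**Figure D2:**
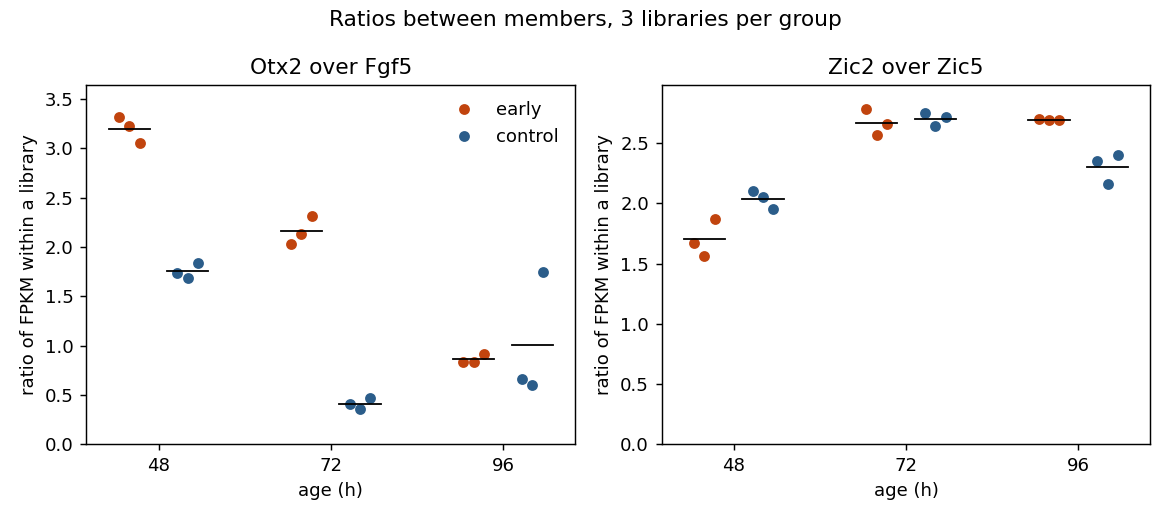
Ratio of FPKM of Otx2 to Fgf5 (left) and of Zic2 to Zic5 (right) within each library, by age in h, with early libraries left of control libraries and a bar at the group mean. The Otx2 to Fgf5 ratio lies between 3.05 and 3.32 at early 48 h and below 1 at early 96 h, and the Zic2 to Zic5 ratio is lowest at early 48 h.

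Etv1, an ETS-family factor induced by FGF and ERK signalling, set itself apart by its narrow range. It was at 64.9, 70.8 and 66.5 CPM at 48 h, 51.6, 55.4 and 57.4 CPM at 72 h and 59.0, 66.0 and 57.2 CPM at 96 h in the early arm. Control levels were 53.3, 57.2 and 45.9 CPM at 48 h, 65.6, 69.5 and 45.1 CPM at 72 h, and 34.1, 37.4 and 29.5 CPM at 96 h. Only the controls of 96 h lay below all other groups. Etv1 was higher in the early arm at 48 h (0.37 ± 0.12, adjusted p = 0.020), a call lost when control replicate 3 (adjusted p = 0.097) or early replicate 2 (adjusted p = 0.0691) of that age was left out. In FPKM it was level at 48 h, at 7.58 in early and 7.28 in untreated gastruloids, and on log2(FPKM + 1) the difference was 0.05 and was not called. At 72 h no difference was called (-0.14 ± 0.12, adjusted p = 0.379). With control replicate 3 of that age left out, the difference was -0.30 and was called (adjusted p = 0.0143). At 96 h it was higher in the early arm (0.85 ± 0.12, adjusted p = 1.13e-05).

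Taking the genes as a group, the change of sign between 48 h and 72 h can be read against the transcriptome. At 48 h 1 gene was higher and 6 were lower in the early arm, with a median log2 fold change of -0.93, where 43.7% of all tested genes were called (23.0% higher, 20.7% lower). At 72 h 6 were higher and 0 lower, with a median of 0.97, where 44.9% of tested genes were called (21.7% higher, 23.2% lower). At 96 h 8 were higher, with a median of 2.69, where 59.1% were called (29.5% higher, 29.6% lower). The median over all tested genes was 0.017 at 48 h, -0.021 at 72 h and -0.006 at 96 h. The counts without the control libraries numbered 3 were 2 higher and 6 lower at 48 h, 6 higher and 1 lower at 72 h, and 8 higher at 96 h.

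**Figure D3:**
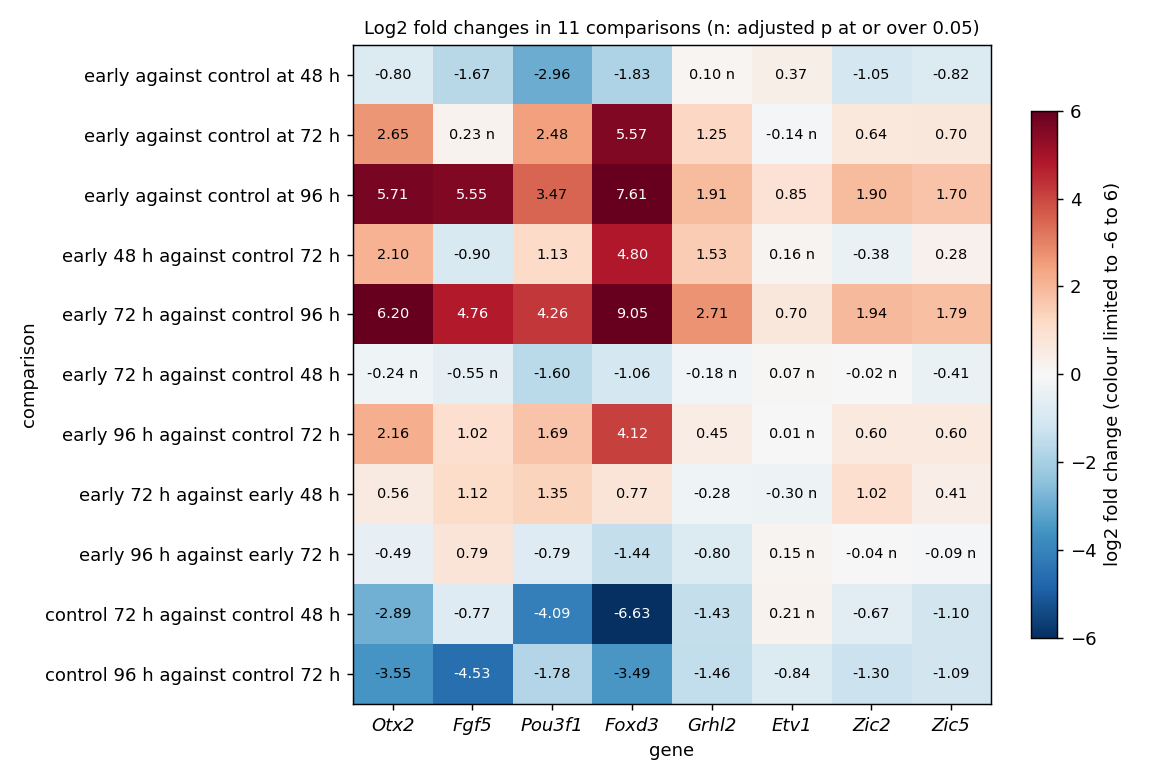
Log2 fold changes of the 8 genes (columns) in 11 comparisons (rows), red where the group named first is higher and blue where it is lower, with n for a gene not called. The first row is mostly blue and the third and the fifth are wholly red, and Foxd3 values against control 96 h are fitted values that rest on 3 reads.

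Set at the end of each pulse, early 48 h against control 72 h, 5 genes were higher and 2 lower in the early arm, with a median of 0.71, where 61.1% of genes were called (29.5% higher, 31.7% lower). Otx2 (2.10 ± 0.16, adjusted p = 4.41e-09), Foxd3 (4.80 ± 0.23, adjusted p = 5.60e-12), Grhl2 (1.53 ± 0.08, adjusted p = 4.46e-11), Pou3f1 (1.13 ± 0.10, adjusted p = 3.37e-08) and Zic5 (0.28 ± 0.07, adjusted p = 0.00295) were higher. Fgf5 (-0.90 ± 0.25, adjusted p = 0.00411) and Zic2 (-0.38 ± 0.09, adjusted p = 8.30e-04) were lower. The early pulse therefore ended with more Otx2, Pou3f1 and Foxd3 RNA than the later pulse did, and with less Fgf5. The counts were the same without the control libraries numbered 3. The groups differ in age by a day as well as in the timing of the pulse.

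In the day after each pulse, early 72 h against control 96 h, all 8 genes were higher in the early arm, with a median of 3.49, where 69.7% of tested genes were called (34.3% higher, 35.4% lower). All 8 were also higher without the control libraries numbered 3. Otx2 was at 147 ± 4.08 CPM in early 72 h and 1.92 ± 0.557 CPM in control 96 h libraries (SD, n = 3 each), a log2 difference of 6.20 ± 0.23 (adjusted p = 7.58e-14). The difference was smallest for Etv1 (0.70 ± 0.12, adjusted p = 6.53e-05). It was 4.76 ± 0.33 for Fgf5 (adjusted p = 4.32e-10), 4.26 ± 0.12 for Pou3f1 (adjusted p = 2.10e-15) and 2.71 ± 0.09 for Grhl2 (adjusted p = 2.97e-14). For Zic2 it was 1.94 ± 0.09 (adjusted p = 1.25e-12) and for Zic5 1.79 ± 0.08 (adjusted p = 6.52e-13). The step itself also differed between the arms. From the end of the pulse to a day later, 6 genes rose in the early arm and 1 fell (early 72 h against early 48 h, 42.6% of genes called, 20.7% higher), and all 8 fell in the controls (control 96 h against control 72 h, 54.9% called, 27.4% lower). With the control libraries numbered 3 left out, 6 rose and 2 fell in the early arm and all 8 fell in the controls. The test of that difference called all 8 genes, each with the larger value in the early arm and a median of 2.73, where 44.5% of genes were called (22.8% higher), and all 8 were called again without those libraries. Over equal ages the step also differed at all 8, with 7 larger and Etv1 smaller in the early arm between 48 and 72 h (46.4% of genes called, 22.8% higher) and 8 larger between 72 and 96 h (33.6% called, 17.8% higher). The Etv1 call between 48 and 72 h was lost when any of 5 single libraries was left out (adjusted p up to 0.0875), and the Foxd3 call between 72 and 96 h when any of 12 was (adjusted p up to 0.156). Without the control libraries numbered 3 the counts were 7 larger and 1 smaller between 48 and 72 h, and 7 larger between 72 and 96 h, where Foxd3 was not called (adjusted p = 0.107). The Foxd3 difference between 72 and 96 h, 2.04 on counts, was also not called with a replicate block (adjusted p = 0.0576), and on log2(FPKM + 1) it was -0.91, called with the opposite sign by limma (adjusted p = 0.000312). Control Foxd3, at 0.203 FPKM at 72 h and 0.0163 FPKM at 96 h, lay far below the 1 added on that scale. The control step was -0.24 there, against -3.49 on counts. That scale therefore cannot measure the control fall, and its sign is no measure of an opposite change.

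In the early arm, the rises from 48 to 72 h were led by Pou3f1 (1.35 ± 0.09, adjusted p = 6.77e-09), Fgf5 (1.12 ± 0.24, adjusted p = 0.00124) and Zic2 (1.02 ± 0.08, adjusted p = 6.83e-08). Foxd3 (0.77 ± 0.13, adjusted p = 1.63e-04), Otx2 (0.56 ± 0.15, adjusted p = 0.00523) and Zic5 (0.41 ± 0.07, adjusted p = 2.04e-04) rose less, and Grhl2 fell (-0.28 ± 0.08, adjusted p = 0.00894). Etv1 was not called (-0.30 ± 0.12, adjusted p = 0.0536). From 72 to 96 h 4 genes fell and 1 rose, where 35.3% of genes were called (17.6% lower). Foxd3 (-1.44 ± 0.14, adjusted p = 5.95e-07), Grhl2 (-0.80 ± 0.08, adjusted p = 1.22e-06), Pou3f1 (-0.79 ± 0.09, adjusted p = 3.11e-06) and Otx2 (-0.49 ± 0.15, adjusted p = 0.0137) fell. The fall of Otx2 was not called without early replicate 1 of 96 h (adjusted p = 0.0624). No change was called for Zic2 (-0.04 ± 0.08, adjusted p = 0.726), Zic5 (-0.09 ± 0.07, adjusted p = 0.339) and Etv1 (0.15 ± 0.12, adjusted p = 0.356). The 8 genes did not move alike in that step, with Fgf5 above and Foxd3 far below its level at 72 h. Without the control libraries numbered 3, Etv1 was also called, lower at 72 h (-0.29 ± 0.06) and higher at 96 h (0.16 ± 0.06).

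In the control arm, 7 of the 8 genes fell across the pulse (control 72 h against control 48 h, 61.4% of genes called, 30.3% lower), with a median of -1.27. Besides Otx2 and Foxd3, Pou3f1 (-4.09 ± 0.10, adjusted p = 9.18e-16), Grhl2 (-1.43 ± 0.08, adjusted p = 7.65e-11) and Zic5 (-1.10 ± 0.07, adjusted p = 4.06e-10) fell. Fgf5 (-0.77 ± 0.23, adjusted p = 0.0077) and Zic2 (-0.67 ± 0.08, adjusted p = 1.64e-06) fell least, and the Fgf5 call was missed with DESeq2's Wald test (adjusted p = 0.0586). Etv1 was not called (0.21 ± 0.12, adjusted p = 0.153) and was called higher without the control libraries numbered 3 (0.28 ± 0.07, adjusted p = 0.00113). In the next day Fgf5 moved to the other end of the order. It had the deepest fitted fall (-4.53 ± 0.33, adjusted p = 2.67e-09), with Otx2 and Foxd3 next, while Pou3f1 (-1.78 ± 0.13, adjusted p = 2.78e-09), Grhl2 (-1.46 ± 0.10, adjusted p = 5.81e-10), Zic2 (-1.30 ± 0.09, adjusted p = 9.45e-10), Zic5 (-1.09 ± 0.08, adjusted p = 1.88e-09) and Etv1 (-0.84 ± 0.12, adjusted p = 1.65e-05) fell less.

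**Figure D4:**
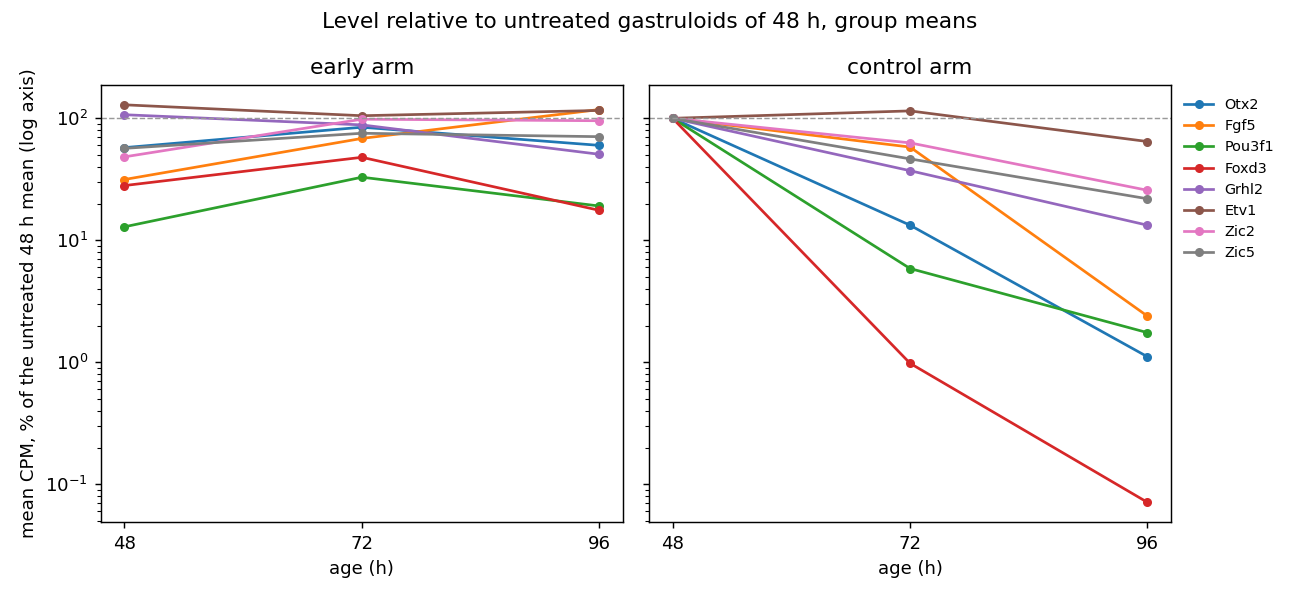
Group mean CPM of each gene as a percentage of its mean in untreated gastruloids of 48 h (log axis) by age in h, in the early arm (left) and the control arm (right); the dashed line marks 100%. Early values lie between 12.9% and 129% throughout, and control values fan out to 64.5% for Etv1 and 0.0711% for Foxd3 at 96 h.

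Against untreated gastruloids, 3 of the 8 genes were called in the early arm at 72 h, a share near that over all genes. Pou3f1 (-1.60 ± 0.09, adjusted p = 1.32e-10), Foxd3 (-1.06 ± 0.13, adjusted p = 2.84e-06) and Zic5 were called lower and 0 higher, where 40.8% of genes were called (21.2% higher, 19.6% lower). Otx2 (-0.24 ± 0.14, adjusted p = 0.191), Fgf5 (-0.55 ± 0.23, adjusted p = 0.0661) and Grhl2 (-0.18 ± 0.08, adjusted p = 0.0808) were not called, although the early libraries lay below all untreated ones for each. That count depends on the libraries. It was 5 where control replicate 3 of 72 h was left out, 5 where that of 96 h was, 6 when only the groups compared were fitted, and 6 without all 3 control libraries numbered 3, where Otx2, Fgf5 and Grhl2 were called lower too. The standard error of the Otx2 difference was then 0.05, against 0.14 with all libraries.

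Early gastruloids of 96 h and controls of 72 h were, of the 11 pairs of groups, the pair with the fewest calls over all genes, at 22.7% (11.8% higher), yet 7 of the 8 genes were higher in the early libraries, with a median of 0.81. Foxd3 was 17.4-fold higher (4.12 ± 0.24, adjusted p = 2.60e-09), Otx2 4.46-fold (2.16 ± 0.16, adjusted p = 5.42e-08) and Pou3f1 3.23-fold (1.69 ± 0.10, adjusted p = 3.38e-09). Fgf5 (1.02 ± 0.23, adjusted p = 0.00424), Zic2 (0.60 ± 0.08, adjusted p = 5.64e-05), Zic5 (0.60 ± 0.07, adjusted p = 1.35e-05) and Grhl2 (0.45 ± 0.09, adjusted p = 0.00103) were higher by less, and Etv1 was at 60.8 and 60.1 CPM (0.01 ± 0.12, adjusted p = 0.955). The count was 7 again without the control libraries numbered 3. The members of the set that differed most between these groups were the transcription factors Foxd3, Otx2 and Pou3f1, with Fgf5 behind them.

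Ordered by mean CPM over the 6 groups, untreated gastruloids were highest for Otx2, Pou3f1, Foxd3, Zic2 and Zic5, early 96 h for Fgf5, and early 48 h for Grhl2 and Etv1. Controls of 96 h were lowest for all 8. Neighbours in the order that overlapped were early 96 h and early 48 h for Otx2, early 48 h and untreated for Grhl2, untreated, early 72 h and early 96 h for Zic2, and early 72 h and early 96 h for Zic5. For Fgf5, controls of 72 h overlapped early 72 h and early 48 h. For Etv1 all 5 groups above the controls of 96 h overlapped their neighbours. Per length, in FPKM, Otx2 led in untreated gastruloids at 65.9, followed by Pou3f1 at 57.1 and Zic2 at 51.2. At early 96 h Zic2 (51.7), Fgf5 (49.4) and Otx2 (42.4) led and Pou3f1 was at 11.7, and at control 96 h Zic2 (13.8) and Zic5 (5.97) led and Otx2 was at 0.758.

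The label of formative epiblast was held against other genes of pluripotency. Untreated gastruloids carried the de novo methyltransferase gene Dnmt3b at 4630 CPM and Pou5f1 at 1250 CPM, and the naive factor Esrrb at 15.7 CPM. Levels within each list ranged widely there. The naive list also held Dppa5a at 520 CPM and Fgf4 at 191 CPM, and the list of other formative genes held Tcf15 at 5.56 CPM and Otx1 at 0.633 CPM. Of 20 other formative and primed genes, 8 were higher and 10 lower in early than in untreated gastruloids at 48 h, with a median of -0.40. Dnmt3b (-1.49 ± 0.07, adjusted p = 5.79e-12), the zinc-finger gene Sall2 (-2.50 ± 0.14, adjusted p = 6.24e-11) and the tight-junction gene Cldn6 (-1.50 ± 0.08, adjusted p = 4.38e-11) were lower. At 72 h 10 were higher and 5 lower in the early arm (median 0.46), and at 96 h 12 were higher and 6 lower (median 0.71). Without the control libraries numbered 3 these counts were 8 and 10, 12 and 5, and 13 and 6. The other formative genes were thus more mixed than the 8, and their summed level was 5580 to 5770 CPM in early and 2530 to 2870 CPM in control libraries of 96 h.

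At 48 h naive genes moved opposite to most of the 8 genes. Of 15 naive genes, 14 were higher and 1 lower in early than in untreated gastruloids, with a median of 2.67, and Esrrb (3.62 ± 0.12, adjusted p = 7.01e-14), Tfcp2l1 (3.30 ± 0.10, adjusted p = 2.63e-14) and Zfp42 (2.40 ± 0.08, adjusted p = 7.01e-14) were among them. Their summed level was 1690 to 1730 CPM in early and 777 to 844 CPM in untreated libraries. At 96 h 8 were higher and 2 lower in early than in control gastruloids (8 and 4 without the control libraries numbered 3), at sums of 496 to 638 CPM and 190 to 264 CPM. Pou5f1 was at 1290 CPM in early and 351 CPM in control gastruloids of 96 h, and Nanog, shared by naive and posterior epiblast, was at 371 and 24.5 CPM (3.91 ± 0.13, adjusted p = 5.84e-14). Of the 10 general pluripotency genes that include both, 6 were higher and 1 lower in the early arm at 96 h. Lower in the early mean were Sox2 (65 and 89.9 CPM), Lin28a (782 and 1140 CPM), Mycn (99.9 and 112 CPM) and Sall4 (255 and 260 CPM). At 48 h 1 was higher and 3 lower. Without the control libraries numbered 3 these counts were 6 and 2 at 96 h and 2 and 5 at 48 h. The part of naive cells in the levels of the 8 genes was not tested.

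**Figure D5:**
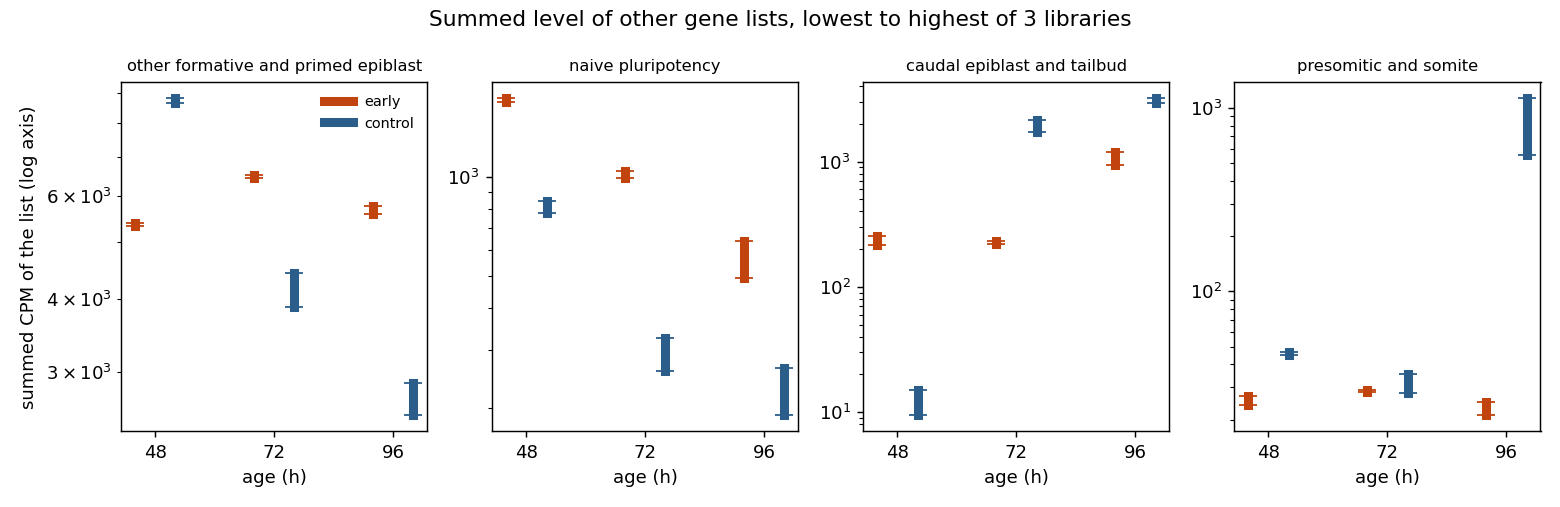
Summed CPM (log axis) of 4 gene lists by age in h, with early left of control; each bar runs from the lowest to the highest of the 3 libraries of a group. Other formative and naive sums are higher in early than in control libraries at 72 and 96 h, and the presomitic sum is highest at control 96 h.

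Caudal genes moved opposite to most of the 8, and presomitic genes did so at 96 h. The 12 caudal epiblast and tailbud genes summed to 216 to 255 CPM in early and 9.4 to 14.9 CPM in untreated libraries at 48 h, with 10 higher and 0 lower in the early arm (11 higher without the control libraries numbered 3). At 72 h they summed to 220 to 234 CPM in the early arm and 1730 to 2140 CPM in the control arm, and 11 of 12 were lower in the early arm and 0 higher (12 lower without the control libraries numbered 3). T, the brachyury factor of the streak, was at 24.7 CPM in early and 1050 CPM in control gastruloids of 72 h (-5.41 ± 0.18, adjusted p = 3.07e-13). At 96 h the list summed to 942 to 1200 CPM in early and 2960 to 3210 CPM in control libraries, and 10 of 12 were lower in the early arm and 0 higher (11 lower without the control libraries numbered 3), with T, at 554 CPM in early and 625 CPM in control gastruloids, among those not called. Presomitic and somite genes summed to 23.9 to 26.8 CPM in early and 44.8 to 46.9 CPM in untreated libraries of 48 h, with 2 of 9 tested genes lower in the early arm and 0 higher (the same counts without those libraries). At 72 h 2 were higher and 1 lower (3 and 4 without those libraries). Presomitic and somite genes summed to 21.1 to 24.9 CPM in early and 553 to 1130 CPM in control libraries of 96 h, with 7 of 9 tested genes lower in the early arm and 1 higher (8 lower and 1 higher without the control libraries numbered 3). Their part in the result was not tested.

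Otx2, Foxd3 and the Zic genes are also used in anterior neural tissue and neural crest. Of 10 anterior neural genes 3 passed the filter, and their sum over all 10 was 1.6 to 19.6 CPM in every library, with Six3, Hesx1 and Rax at no more than 0.199 CPM in any group mean. Sox1 and Emx2 were highest in controls of 96 h, at 6.03 and 4.89 CPM. Pax6 was highest at early 72 h, at 3.84 CPM, against 0.358 CPM in controls of 72 h. The sum was 6.6 to 6.8 CPM in early and 1.6 to 3.31 CPM in control libraries at 72 h. At 96 h it was 3.13 to 5.26 and 10 to 19.6 CPM. Of the 3 tested, 0 were higher and 0 lower in the early arm at 48 h, 1 and 0 at 72 h, and 0 and 2 at 96 h. Without the control libraries numbered 3, 5 were tested, with 0 and 0, 3 and 0, and 1 and 2. The 10 neural crest genes summed to 13.6 to 15.2 CPM in early and 18.7 to 19.2 CPM in untreated libraries at 48 h, to 17.5 to 18.9 CPM in early and 22.4 to 36.4 CPM in control libraries at 72 h, and to 23 to 25.6 CPM in early and 47.6 to 82.9 CPM in control libraries at 96 h. Of 9 tested, 2 were higher and 5 lower in the early arm at 48 h, 0 and 2 at 72 h, and 0 and 4 at 96 h (3 and 4, 0 and 3, and 1 and 5 without the control libraries numbered 3). At 96 h Msx1 was at 4.01 CPM in early and 26.2 CPM in control gastruloids, Ets1 at 15.9 and 16.4 CPM and Sox9 at 1.28 and 12.1 CPM, and Sox10, a defining factor of the crest, was at 0.246 to 0.662 CPM over all group means. The part of these cells in the levels of the 8 genes was not tested. Otx2 also marks anterior streak derivatives and visceral endoderm. At 96 h genes of the first were mixed, and most extraembryonic endoderm genes were higher in the early arm. Of 10 anterior streak and endoderm genes 6 were higher and 2 lower (6 and 4 without the control libraries numbered 3). Eomes was at 174 CPM in early and 2.45 CPM in control gastruloids (6.04 ± 0.48, adjusted p = 5.95e-09) and Gsc at 5.08 and 0.289 CPM (4.05 ± 0.59, adjusted p = 1.15e-05). Lower in the early mean were Lhx1 (9.19 CPM in early and 43.8 CPM in control gastruloids), Sox17 (1.19 and 3.28 CPM), Mixl1 (26 and 32.6 CPM) and Foxa1 (1.2 and 1.73 CPM). Of 8 tested extraembryonic endoderm genes 6 were higher and 0 lower (7 and 0 without those libraries), at sums of 80.2 to 85.9 CPM in early and 18.3 to 55.9 CPM in control libraries, and the visceral endoderm gene Ttr was at 1.23 and 0.294 CPM. Their part in the Otx2 level was not tested.

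The epithelial genes, of which several are held to be Grhl2 targets, were lower in the early arm at 48 h for 11 of 14 (0 higher), while Grhl2 itself was not called. At 96 h 11 of 14 were higher and 1 lower in the early arm, among them Cldn6 (2.74 ± 0.09, adjusted p = 4.15e-14) and the Rab GTPase gene Rab25 (2.96 ± 0.17, adjusted p = 5.37e-11). Without the control libraries numbered 3 these counts were 13 of 14 lower at 48 h and 10 higher and 2 lower at 96 h.

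Relatives of Otx2, Pou3f1 and Foxd3 were nearly silent, and some relatives of Etv1, Fgf5 and Grhl2 were not. Otx1 was at no more than 0.648 CPM in any group mean and Crx had 0 reads in all groups. The POU relatives Pou3f2, Pou3f3 and Pou3f4 stayed below 1 CPM, and Foxd2 and Foxd4 at no more than 0.322 CPM. Etv5, the ETS relative in ERK feedback, was at 613 ± 9.86 CPM in early and 485 ± 6 CPM in untreated gastruloids at 48 h, and at 382 ± 16.4 CPM in early and 202 ± 0.909 CPM in control gastruloids at 96 h (SD, n = 3 each). Fgf4, the FGF ligand of naive and early epiblast cells, was at 89.2 ± 1.87 CPM in early and 191 ± 11.8 CPM in untreated gastruloids at 48 h. Grhl3 went the other way from Grhl2 in the last step, at 3.32 ± 0.437 CPM in early and 24.4 ± 1.73 CPM in control gastruloids of 96 h.

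Over the 18 libraries, which fall into 6 groups and so are not independent points, the levels in log2 CPM followed each other to different degrees. As a description, Pearson's r of Otx2 was 0.96 with Foxd3, 0.95 with Grhl2, 0.95 with Zic5, 0.90 with Pou3f1, 0.90 with Fgf5, 0.86 with Zic2 and 0.76 with Etv1. The lowest of the 28 pairs was Pou3f1 with Etv1, at 0.46. Among all other named genes of at least 5 CPM, the pattern most like Otx2 was that of Myb, a transcription factor of proliferating progenitors (r = 0.99), which was at 50.9, 67.9 and 38.3 CPM in the early arm and 80.3, 19.1 and 3.34 CPM in the control arm at 48, 72 and 96 h. Next were the zinc importer gene Slc39a4 (0.988) and the sodium pump subunit gene Atp1b1 (0.986). Most like other members of the 8 were Chmp4c for Fgf5 (0.982), Slc35d3 for Pou3f1 (0.99), the amino acid transporter gene Slc7a3 for Foxd3 (0.984), Chd5 for Grhl2 (0.994), Pald1 for Etv1 (0.941), and Tmem189 and Ugt8a for Zic2 (both 0.984).

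Exons of other annotated genes overlap some of the 8, and the strand setting of the counting is not given in the sources used here. Gm2164 overlaps Pou3f1 on the opposite strand over 330 bp, with 238 counts over all 18 libraries, and Gm16136 overlaps Grhl2 over 124 bp, with 797 counts. Otx2os1, antisense to Otx2, had 31 counts in all. Without a known strand setting, reads of such pairs cannot be told apart.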

How the data were processed

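PolyA RNA of 18 gastruloid pools was sequenced after a stranded mRNA ligation preparation, per the labels' protocols, which name a pair of preparation codes and assign no library to them. The authors trimmed reads with cutadapt 4.0, aligned them with STAR 2.7.8a to mm10 and ran Cufflinks 2.2.1, per the submitters' processing notes. The authors deposited raw counts of 55385 genes and FPKM values of 55468 genes. The counts are labelled as HTSeq counts, and the sources used here give no version or settings for the counting. Library columns matched the sample descriptions.

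Counts were fitted in edgeR 4.0.16 (R 4.3.3) with TMM, filterByExpr and 1 coefficient per group over all 18 libraries, in 14 comparisons, 3 of them differences of a step between arms. All 8 genes are reported in every comparison. Of other lists, up to 4 genes of the lowest adjusted p per comparison are named, and for each of the 8 genes up to 3 other genes by Pearson's r in log2 CPM (prior count 2). Some genes are also named for their level alone: Esrrb, Pou5f1, Six3, Hesx1, Rax, Sox1, Emx2, Msx1, Ets1, Sox9 and Sox10, chosen after their values were seen. The same holds for Dppa5a, Fgf4, Otx1, Tcf15, Lhx1, Sox17, Mixl1, Foxa1, Pax6, Sox2, Sall4, Lin28a and Mycn. The 8 genes and the lists were chosen with earlier results of these data known. Some genes that these rules name are not reported here. The fit was tested on simulated data. Alternatives were DESeq2 1.42.0 (size factors, Wald test), other filters, only the groups compared, a replicate block, limma 3.58.1 on log2(FPKM + 1) and log2(FPKM + 0.1), each library left out, and all control libraries numbered 3 left out. Figures were drawn with matplotlib 3.10.9.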

Additional observations from a re-analysis of the deposited data

Results flagged for a closer look

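Changes over the same step were called different between the early and the control arm for all 8 genes, Etv1 and Foxd3 with the exceptions given here, by edgeR's test of the difference itself (adjusted over 16041 genes). Values are log2 differences, the early step minus the control step. Between 48 and 72 h they were 3.45 for Otx2, 1.90 for Fgf5, 5.44 for Pou3f1, 7.40 for Foxd3, 1.15 for Grhl2, 1.69 for Zic2 and 1.52 for Zic5, and -0.50 for Etv1, the only gene with the sign reversed (46.4% of all tested genes were called). Etv1's value was past the threshold by little (adjusted p = 0.0219), and it was not called on the FPKM scale or without any of 5 libraries in turn: control replicate 3 of 48 h, early replicate 2 of 48 h, control replicates 1 and 2 of 72 h, and early replicate 1 of 72 h (adjusted p up to 0.0875).

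Between 72 and 96 h they were 3.06 for Otx2, 5.33 for Fgf5, 0.99 for Pou3f1, 2.04 for Foxd3, 0.67 for Grhl2, 0.99 for Etv1, 1.26 for Zic2 and 1.00 for Zic5 (33.6% of all genes called). Foxd3 rests on 3 reads in the controls of 96 h and is the value least to be relied on, with an adjusted p of 0.046 that passed the threshold no longer when 12 of the 18 libraries were left out in turn (adjusted p up to 0.156, without control replicate 1 of 72 h). It was also lost with a replicate block (adjusted p = 0.0576), and on log2(FPKM + 1) it was -0.91, called with the opposite sign by limma (adjusted p = 0.000312). That scale adds 1 to control levels of 0.203 FPKM at 72 h and 0.0163 FPKM at 96 h, so it cannot measure the control fall.

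For the day after the pulse, early 72 h minus 48 h set against control 96 h minus 72 h, they were 4.11 for Otx2, 5.66 for Fgf5, 3.14 for Pou3f1, 4.26 for Foxd3, 1.19 for Grhl2, 0.54 for Etv1, 2.32 for Zic2 and 1.51 for Zic5. Without control replicate 1 of 96 h the Foxd3 value was 4.95, and without control replicate 2 of 72 h Etv1 was not called (0.43, adjusted p = 0.0513). Groups of 3 libraries are too small for a test of single outlying libraries.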

How the results depend on the processing

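Of 112 results on single genes, 97 were called, and 12 of these lost the call in at least 1 alternative. Over 3023 pairs of a result and an alternative, 2937 kept direction and call, 31 gained a call, 40 lost it and 15 changed sign. The counts of called members moved by over 1.5 times in 2 comparisons. For early 72 h against control 48 h the count of 3 was 5 with no filter, 6 with only the groups compared, 3 to 5 with each library left out, and 6 without all control libraries numbered 3. For early 96 h against early 72 h the count of 5 was 3 on log2(FPKM + 0.1). Among called values, 1 changed sign: the Foxd3 arm difference of the 72 to 96 h step, 2.04 in the reported fit, was -0.91 on log2(FPKM + 1) (called by limma, adjusted p = 0.000312) and -0.022 on log2(FPKM + 0.1), and 1.5 to 2.72 with each library left out (1.85, adjusted p = 0.107, without the control libraries numbered 3). With 1 added to control levels of 0.203 FPKM at 72 h and 0.0163 FPKM at 96 h, the control step shrank to -0.24, from -3.49 on counts. Of values not called, Etv1 in early 48 h against control 72 h (0.16) was -0.012 on log2(FPKM + 1), -0.013 on log2(FPKM + 0.1), -0.0052 to 0.27 with each library left out and -0.0057 without the control libraries numbered 3. Zic2 in early 72 h against control 48 h (-0.02) was 0.035 and 0.036 on these scales. Etv1 in early 72 h against control 48 h (0.07) was -0.013 to 0.14, and -0.012 without the control libraries numbered 3. Fgf5 at 72 h (0.23) was -0.10 to 0.44, and -0.085 without them. Etv1 in early 96 h against control 72 h (0.01) was -0.15 to 0.14, and -0.14 without them. The cause was not tested for the values not called.

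On the FPKM scales, calls were also lost for Etv1 at 48 h and in the arm difference of 48 to 72 h, for Grhl2 in early 72 h against 48 h, for Otx2 in early 96 h against 72 h, for Zic5 in early 48 h against control 72 h and, on 1 of the scales each, for Fgf5 and Foxd3 in some steps. Over all genes, the share of calls that were higher moved on log2(FPKM + 1): it was 41.6%, against 52.7% on counts, at 48 h, 32.3% against 48.2% in early 48 h against control 72 h, 70.1% against 48.7% in early 72 h against early 48 h, and 65.1% against 50% in early 96 h against early 72 h. On log2(FPKM + 0.1) they were also 63.1% against 51.9% in early 72 h against control 48 h and 63.1% against 51.2% in the arm difference after the pulse.

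With the replicate block, Fgf5 in early 72 h against control 48 h became called (-0.55, adjusted p = 0.0444), Etv1 in early 72 h against early 48 h became called (adjusted p = 0.0165) and the Foxd3 arm difference of 72 to 96 h was lost (2.04, adjusted p = 0.0576). Libraries of the same number deviated together weakly (r of -0.20 to 0.21 over 45 pairs, 5 above 0.1), so the numbers were not taken to pair the samples. Among the control groups alone r was positive in all such pairs, though small (0.02 to 0.17 over 9 pairs, 3 above 0.1). Depth limits Foxd3 at control 96 h, where 3 reads were counted in all.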

Other observations

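Wnt feedback genes moved mostly opposite to the 8 genes, and ERK feedback genes were mixed. The part of either in the levels of the 8 genes was not tested. Of 11 Wnt feedback genes, 10 were higher and 0 lower in early than in untreated gastruloids at 48 h, and 11 were lower and 0 higher in early than in control gastruloids at 72 h. Axin2, the feedback scaffold of the pathway, was at 120 CPM in early and 12.7 CPM in untreated gastruloids at 48 h (3.25 ± 0.07, adjusted p = 1.10e-15), and at 81 CPM in early and 215 CPM in control gastruloids at 72 h (-1.41 ± 0.06, adjusted p = 6.45e-12). At 96 h 1 was higher and 7 were lower in the early arm. Without the control libraries numbered 3 these counts were 10 and 0 at 48 h, 0 and 11 at 72 h, and 1 and 8 at 96 h.

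ERK feedback genes, which respond to FGF ligands such as Fgf5 and Fgf4, were mixed. Of 11, 4 were higher and 3 lower in the early arm at 48 h, 4 and 3 at 72 h, and 2 and 7 at 96 h (5 and 4, 4 and 3, and 2 and 7 without the control libraries numbered 3). At 96 h, when Fgf5 was 46.9-fold higher in early gastruloids, the phosphatase gene Dusp4 was at 51.2 CPM in early and 158 CPM in control gastruloids (-1.63 ± 0.10, adjusted p = 1.80e-10) and the Sprouty gene Spry4 at 33.3 and 112 CPM (-1.75 ± 0.09, adjusted p = 7.59e-12), while Etv5 was higher in early gastruloids (0.92 ± 0.04, adjusted p = 3.96e-13).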
